A study of Homo sapiens with 14 samples.

Results

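The comparison of the ADAR1 hairpin sh1 with the hairpin control shNC is described here across all genes. Its members were chosen by sample title and number 4 of the 14 libraries of the series, 2 labelled OVCAR3-DDP-sh1 and 2 labelled OVCAR3-DDP-shNC. All 4 carry the label OVCAR3, a human ovarian cancer cell line, and were made in its cisplatin-resistant derivative, for which DDP stands. A short hairpin RNA was present in every one of them: shNC served as the control, and sh1 has the genotype label shADAR1, which it shares with the second hairpin, sh2. The 2 sh2 libraries entered only to estimate the spread and to test directly where the hairpins differ. Total RNA was sequenced, and the study asked what ADAR1 contributes to the cisplatin-resistant state. The labels give neither the hairpin sequences, nor the time after transduction, nor whether cisplatin was present. The labels do not say whether the 2 replicates of a group were separate cultures, so each p-value measures only the spread between these libraries, which may be technical.

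ADAR1, the product of ADAR, changes adenosines of double-stranded RNA into inosines. Edited self RNA is a poor ligand for the cytosolic sensor MDA5, encoded by IFIH1, and ADAR1 also restrains the kinase PKR, encoded by EIF2AK2, and the OAS enzymes. MDA5 signals through MAVS to interferons and their target genes. PKR phosphorylates the translation initiation factor eIF2 alpha, as do kinases that sense amino acid shortage or misfolded protein, and the transcription factor ATF4 then drives genes of amino acid supply, an arm called the integrated stress response. Gene counts hold no editing levels, which were not analysed here.

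The 4 libraries held 21244015 to 23746370 counts on genes, so their depths were close. Levels are given as CPM, a gene's count scaled to a common total of assigned counts, first for replicate 1 and then for replicate 2. Reads on no gene took 49.5% to 50% of each library, and mitochondrial messenger RNA 0.856% to 0.947% of assigned counts. The 2 sh1 libraries stood apart from each other. Among 9825 genes at 10 CPM or more in the shNC, sh1 and sh2 groups, 332 were over 1.5-fold apart between the sh1 libraries, against 10 between the shNC libraries and 17 between the sh2 libraries. The gap between the sh1 libraries followed the GC content of the gene, with a Spearman correlation of −0.80 across 9067 protein-coding genes, which are not replicates. For replicate 2 the median log2 difference from the shNC mean fell from 0.39 in the lowest of 4 equal bins of GC content to −0.18 in the highest, while for replicate 1 it lay between 0.04 and 0.08 in every bin. Called genes followed the same order, with a median GC content of 45.0% in those higher in sh1, 55.6% in those lower and 50% in all 9067. The trend was not confined to sh1 replicate 2. The log2 change of sh2 against shNC had a Spearman correlation of −0.66 with GC content. Its bin medians ran from 0.275 in the lowest bin to −0.264 in the highest. Between the sh2 libraries, replicate 2 against replicate 1, the correlation was 0.47. The medians of 16 lists are plotted for each sh1 library alone. These single-library differences use CPM without the scaling of the fitted log2 changes. Over all tested genes their median was 0.06 in replicate 1 and 0.08 in replicate 2.

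**Figure D1:**
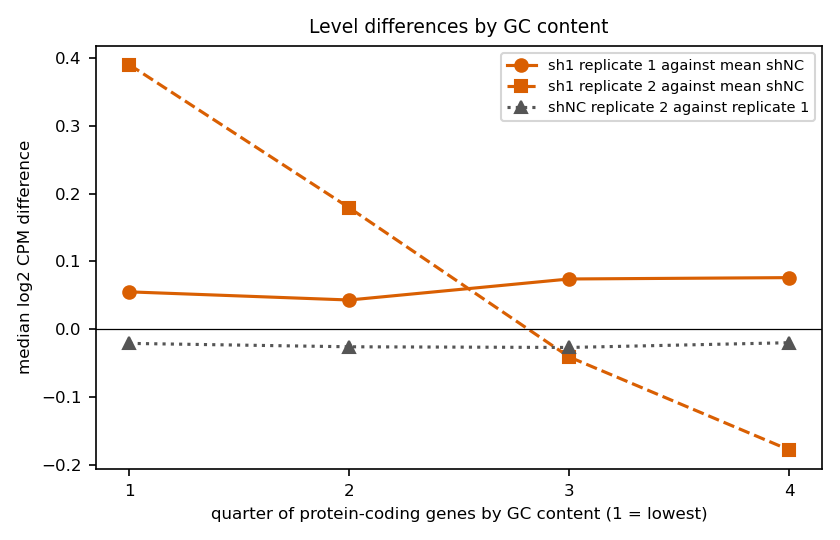
Median log2 CPM difference (vertical axis) over protein-coding genes in 4 equal bins of rising GC content (horizontal axis), for each sh1 library against the shNC mean and for the 2 shNC libraries against each other. Replicate 2 of sh1 runs from 0.39 to −0.18, replicate 1 stays between 0.04 and 0.08, and the shNC pair stays between −0.03 and −0.02.

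The labelled line was checked against ovarian carcinoma markers. In shNC and sh1 FOLR1, a receptor for folate, stood at 1156, 1291, 886 and 835 CPM, mesothelin (MSLN) at 348, 350.2, 296 and 252 CPM, and the keratin KRT7 at 965, 1048, 1016 and 900.2 CPM, in that order of libraries. KRT8, KRT18, MUC1, CD24, EPCAM, MUC16 and PAX8 were detected as well, the lowest of them PAX8 at 5.44, 4.74, 6.02 and 4.71 CPM. The remaining markers of the list were at or near 0. CDH6 and SOX17 had no count in the 4 libraries, and CDH1, WT1 and WFDC2 stayed under 0.1 CPM in each. The untransduced libraries labelled OVCAR3-DDP, in which KRT7 was at 0.376 and 0.116 CPM, differ in KRT7, FOLR1, MSLN and WT1 from the hairpin libraries. In the parental OVCAR3 libraries KRT7 was at 1135 and 1030.2 CPM, FOLR1 at 431 and 429.9 CPM and MSLN at 259.7 and 239 CPM, and WT1 had no count, so the hairpin libraries stood nearer to these in the 4 markers than to the library pair labelled as their own background. Leukocyte markers, of which 4 of 14 passed the low-count filter, summed to 15.6 to 17.4 CPM over the 4 libraries. Endothelial markers, of which 2 of 9 passed, summed to 26.0 and 21.8 CPM in shNC and 40.4 and 32.0 CPM in sh1. Fibroblast markers, of which 6 of 11 passed, summed to 123 and 121 CPM in shNC and 149 and 136 CPM in sh1.

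ADAR itself (ENSG00000160710.18; a protein-coding gene of GENCODE 29 at chromosome 1, 154582057 to 154628013, minus strand, in GRCh38) was at 447 and 399 CPM in the shNC libraries and 289 and 254 CPM in the sh1 libraries. Both sh1 libraries lay below both controls, and ADAR fell by 0.71 on the log2 scale (SE 0.11; edgeR adjusted p = 0.00123). The sh2 libraries were lower again, at 116 and 114 CPM (log2 −1.27, SE 0.11; edgeR adjusted p = 5.86e-06 for sh2 against sh1). Whether fewer cells carried the knockdown or each cell held less ADAR RNA cannot be told apart in bulk samples. ADARB1, the other catalytically active editing enzyme of this family, stood at 113 and 103 CPM in shNC and 105 and 91.1 CPM in sh1, which overlap, and did not pass (log2 −0.22, SE 0.12; edgeR adjusted p = 0.321). Without sh1 replicate 1 ADARB1 passed (edgeR adjusted p = 0.00722), and over the alternatives its adjusted p ran up to 0.775. ADARB2 was too low to be tested.

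Of 19044 genes tested with edgeR's quasi-likelihood test, 725 passed at a Benjamini-Hochberg adjusted p under 0.05 in sh1 against shNC, which is 3.81% of those tested. Higher in sh1 were 373 (1.96%) and lower 352 (1.85%), and each list count below is to be read beside these shares. The changes were small: 642 of the 725 were under 2-fold, and their median size was 0.63 on the log2 scale over all 725. At least 2-fold changes numbered 83 (0.436%), 66 higher (0.347%) and 17 lower (0.0893%), and 52 of the 66 had a mean under 10 CPM in sh1. Level and direction went together, since among 2391 genes over 100 CPM 56 were higher and 186 lower, while among 4051 genes between 1 and 5 CPM 31 were higher and 5 lower. Libraries of sh1 and shNC did not overlap in 9276 genes (48.7%), so lack of overlap alone marks little. All 725 called genes were among them, so for a called gene lack of overlap is no further evidence. The total moved with the libraries that set the spread between replicates. The biological coefficient of variation, an estimate of that spread, was 0.106 in this fit. It was 0.123 with either shNC library left out and 0.0654 with either sh1 library left out. Fewer genes passed without an shNC library, where the spread was wider, and more without an sh1 library. Leaving out an shNC library also changes the control mean, and the part of each in the lost calls was not tested. A call gained without sh1 replicate 1 rests on replicate 2 alone, whose difference from the shNC mean followed GC content. DESeq2's Wald test, run with its own scaling and filter, called 381 higher and 592 lower. With upper-quartile scaling edgeR called 316 higher and 370 lower, so the near balance of directions depends on the settings.

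**Figure D2:**
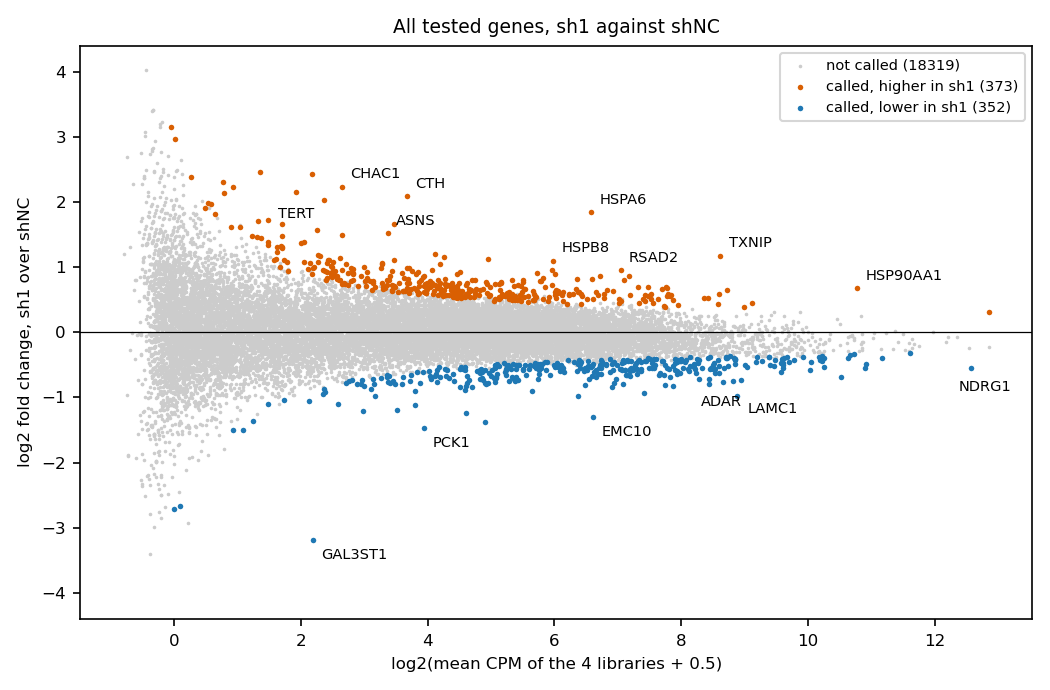
Log2 fold change of sh1 over shNC (vertical axis) against the mean level of the 4 libraries (horizontal axis, log2 of CPM + 0.5) for 19044 tested genes. The 373 genes called higher and 352 called lower lie mostly within 2-fold; CHAC1, CTH, HSPA6 and TXNIP stand out above and EMC10, PCK1 and GAL3ST1 below.

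Genes of amino acid supply and the integrated stress response rose in greater number than those of any other list examined. CTH, which makes cysteine from cystathionine, was at 4.77 and 4.13 CPM in shNC and 16.8 and 23.3 CPM in sh1 (log2 2.09, SE 0.21; edgeR adjusted p = 1.47e-05). CHAC1, which degrades glutathione, rose from 1.52 and 2.35 to 10.7 and 8.57 CPM (log2 2.24, SE 0.26; edgeR adjusted p = 6.35e-05). The asparagine synthetase ASNS rose from 4.98 and 4.83 to 16.1 and 13.6 CPM (log2 1.52, SE 0.18; edgeR adjusted p = 6.35e-05). For all 3 enzymes both sh1 libraries lay above both controls. SESN2, a sestrin that restrains mTORC1 when leucine is short, rose from 6.54 and 6.35 to 16.3 and 13.1 CPM (log2 1.11, SE 0.18). The glutamine carrier SLC1A5 rose from 165 and 157 to 283 and 264 CPM (log2 0.69, SE 0.11). These transcripts separated sh1 from shNC without overlap. TRIB3, a pseudokinase that feeds back on ATF4, rose from 57.5 and 56.9 to 122 and 90.8 CPM (log2 0.82, SE 0.14).

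Within the list of 40 such genes, 39 were tested, 22 passed as higher and 0 as lower, against 1.96% and 1.85% of all genes. The median over the 39 was log2 0.53, against 0.02 over all tested genes, and 36 of the 39 were positive. Both sh1 libraries gave the same list median against the shNC mean, 0.55 in each. Among the members that rose were 5 aminoacyl-tRNA synthetases, which load amino acids onto tRNA: AARS1 (163 and 162 CPM in shNC and 295 and 253 in sh1), CARS1 (0.69), GARS1 (0.53), WARS1 (0.51) and SARS1 (0.44, all log2). CARS1, GARS1, WARS1 and SARS1 lost their calls without shNC replicate 1 (edgeR adjusted p = 0.0565, 0.105, 0.137 and 0.309). The serine pathway enzymes PSAT1 (log2 0.60), PSPH (0.56) and PHGDH (0.44) passed too, as did the cystine carrier SLC7A11 (0.77) and its partner SLC3A2 (0.45). The stress factors DDIT3 (log2 0.51) and ATF3 (0.58) rose as well. ATF4, which is controlled mainly at translation, stood at 275 and 286 CPM in shNC and 345 and 335 CPM in sh1, did not overlap and did not pass (log2 0.20, SE 0.10; edgeR adjusted p = 0.302). It passed with a GC correction (edgeR adjusted p = 0.0193).

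Some members did not move with the rest. The leucine carrier SLC7A5 was at 779 and 729 CPM in shNC and 999 and 720.5 CPM in sh1, and the sh1 libraries fell on both sides of the controls. Without sh1 replicate 2 SLC7A5 passed (edgeR adjusted p = 0.00465). The mTOR inhibitor DDIT4 (log2 −0.08, SE 0.10) and the translation repressor EIF4EBP1 (log2 0.07, SE 0.11), also listed targets of ATF4, did not pass. The number of members that passed fell to 8 without shNC replicate 1 and to 8 without shNC replicate 2. Those that passed without each hairpin library in turn were 7: AARS1, ASNS, CHAC1, CTH, SESN2, SLC1A5 and TRIB3.

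**Figure D3:**
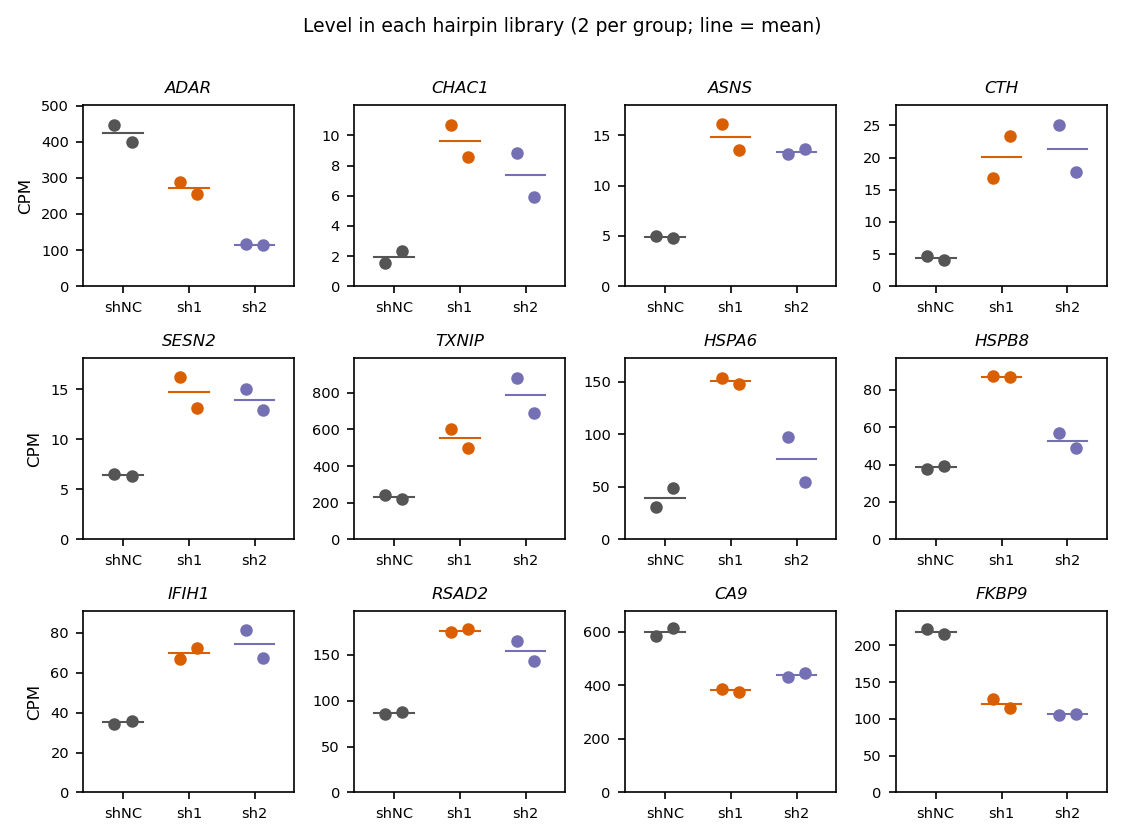
CPM of 12 genes (vertical axes, each from 0) in the shNC, sh1 and sh2 groups; points are single libraries with replicate 1 on the left, lines are means of 2. ADAR steps down from shNC to sh1 to sh2, while ASNS, CTH, SESN2, IFIH1 and FKBP9 are at similar levels with both hairpins and HSPA6 and HSPB8 are highest with sh1.

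The upstream sequences of a risen gene of each stress or sensing arm are shown because their known response elements can be read in them. Each is 250 bases ending just before the RefSeq gene start (GRCh38.p14), 5′ to 3′ on the gene's strand, with motif matches in capitals. ASNS lies at chr7:97872409-97872658, minus strand, and its capitals mark TGATGNAA, the core of the amino acid response element bound by ATF4. HSPA6 lies at chr1:161524290-161524539, plus strand, with the heat shock element, GAA, TTC and GAA set 2 bases apart, read on the opposite strand. TXNIP lies at chr1:145996580-145996829, minus strand, with the carbohydrate response element, a pair of CACGNG set 5 bases apart. IFIH1 lies at chr2:162318685-162318934, minus strand, with the interferon response motif, a pair of GAAA set 2 bases apart, on both strands, 2 of its 3 matches overlapping.
ASNS: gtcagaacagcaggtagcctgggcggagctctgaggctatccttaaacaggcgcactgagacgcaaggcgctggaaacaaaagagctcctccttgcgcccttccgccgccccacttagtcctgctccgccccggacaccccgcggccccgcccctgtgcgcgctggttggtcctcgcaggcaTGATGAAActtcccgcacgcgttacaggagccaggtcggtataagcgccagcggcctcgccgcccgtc
HSPA6: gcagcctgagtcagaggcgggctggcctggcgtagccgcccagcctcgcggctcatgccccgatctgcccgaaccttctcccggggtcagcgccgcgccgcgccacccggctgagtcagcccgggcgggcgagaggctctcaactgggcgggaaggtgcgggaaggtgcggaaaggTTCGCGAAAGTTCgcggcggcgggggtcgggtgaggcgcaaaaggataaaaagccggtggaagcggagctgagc
TXNIP: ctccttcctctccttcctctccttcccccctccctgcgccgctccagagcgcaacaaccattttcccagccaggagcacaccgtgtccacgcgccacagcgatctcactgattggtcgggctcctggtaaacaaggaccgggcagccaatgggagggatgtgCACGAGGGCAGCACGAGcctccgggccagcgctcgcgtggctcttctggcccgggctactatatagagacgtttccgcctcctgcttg
IFIH1: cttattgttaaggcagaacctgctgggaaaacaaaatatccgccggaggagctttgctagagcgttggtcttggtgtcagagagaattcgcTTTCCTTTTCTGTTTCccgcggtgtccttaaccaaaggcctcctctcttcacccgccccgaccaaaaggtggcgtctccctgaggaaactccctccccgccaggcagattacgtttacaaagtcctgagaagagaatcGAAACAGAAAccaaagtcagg

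Both strands were searched in the same 250 bases of 27305 promoters in the RefSeq table. TGATGNAA was found in 3.19% of them, in 5 of 34 matched genes of the amino acid list and in 4 of its 19 matched risen members, which are ASNS, CHAC1, ATF3 and AARS1. CTH and SESN2 lack these letters in this window. The heat shock element was found in 0.439% of all promoters, in 1 of 15 matched heat shock genes, HSPA8, and in HSPA6, which is not on that list. It was in 0 of the 7 heat shock members that rose. The interferon response motif was found in 3.07% of all promoters and in 22 of 37 matched interferon-stimulated genes. Of the 7 matched members of that list that rose, 2 had it, SAMD9 and PARP14, and RSAD2 did not. The carbohydrate response element was found in 0.0586% of all promoters, and ARRDC4 lacks it in this window. A match is a description of letters and not a site of binding.

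Cytosolic chaperones rose as well. The inducible chaperone HSPA6 was at 30.5 and 49.03 CPM in shNC, 154 and 148 CPM in sh1 and 97.8 and 54.5 CPM in sh2. The sh1 libraries were above all others (log2 1.84, SE 0.21; edgeR adjusted p = 6.35e-05), and sh2 was lower than sh1 (log2 −1.02, SE 0.21; edgeR adjusted p = 0.0135), a difference lost without sh2 replicate 2 (log2 −0.65; edgeR adjusted p = 0.167) and with DESeq2's Wald test (adjusted p = 0.18). Its near-copy HSPA7, an unprocessed pseudogene on the same chromosome, rose from 0.971 and 1.35 to 6.401 and 4.52 CPM (log2 2.16, SE 0.38). How reads shared by the 2 copies were counted is not given in the sources used here, so their values are not separate. The small chaperone HSPB8, a partner of BAG3 in clearing misfolded protein, was at 37.8 and 39.3, 87.3 and 86.9 and 56.7 and 49.01 CPM in shNC, sh1 and sh2. It too was highest in sh1 (log2 1.10, SE 0.13; edgeR adjusted p = 6.35e-05). Its difference from sh2 (log2 −0.75, SE 0.13; edgeR adjusted p = 0.00331) was lost without sh2 replicate 2 as well (edgeR adjusted p = 0.12).

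Of 16 listed cytosolic heat shock genes 14 were tested, 7 rose and 0 fell, and all 14 were positive, with a median of log2 0.46. The stress-inducible HSP90AA1 rose from 1241 and 1351 to 1936 and 2454 CPM (log2 0.68, SE 0.11), while its constitutive relative HSP90AB1 stood at 2521 and 2599 and 2700.1 and 2765 CPM (log2 0.02, SE 0.09; edgeR adjusted p = 0.943). The co-chaperones DNAJB1 (log2 0.66), DNAJA1 (0.56) and BAG3 (0.57) and the HSP70 relatives HSPA4 (0.58) and HSPH1 (0.58) made up the others that rose. Their transcription factor HSF1 did not pass (log2 0.05, SE 0.12). HSPA1A and HSPA1B, a near-identical pair, held 0 to 0.126 CPM in the 4 libraries and were not tested. The list median was 0.42 in sh1 replicate 1 and 0.69 in replicate 2, and the median GC content of its members was 46.9%. Without shNC replicate 1 the number that rose was 2, HSP90AA1 and HSPB8, and without shNC replicate 2 it was 4.

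Chaperones and stress genes of the endoplasmic reticulum moved less. Of 20 tested, 3 rose and 0 fell, with a median of log2 0.16. HSP90B1, an abundant chaperone of this compartment, did not pass (log2 −0.15, SE 0.10). With a GC correction it passed as lower (edgeR adjusted p = 0.0122). HERPUD1, a component of protein degradation there, rose from 144 and 140.2 to 216 and 233 CPM (log2 0.58, SE 0.11), and the transcription factor XBP1 from 131 and 136 to 206 and 213 CPM (log2 0.57, SE 0.11). HSPA5, the main chaperone of this compartment, was at 6133 and 6645 CPM in shNC and 8209 and 8518 CPM in sh1 (log2 0.31, SE 0.08). With sh2 it was at 6194 and 6108 CPM (log2 −0.47, SE 0.08, edgeR adjusted p = 0.0052 for sh2 against sh1). That difference between hairpins did not pass with either sh2 library left out. Each of the 3 lost its call without shNC replicate 1, with edgeR adjusted p of 0.087, 0.136 and 0.305, and without shNC replicate 2, with 0.115, 0.0841 and 0.0583. HSPA5 lost it also without sh2 replicate 1 (0.113) and sh2 replicate 2 (0.121).

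TXNIP, an arrestin that lowers glucose uptake and binds thioredoxin, rose from 245 and 219.6 CPM in shNC to 605 and 499 CPM in sh1 (log2 1.18, SE 0.13; edgeR adjusted p = 3.03e-05). It was higher still with sh2, at 882 and 692 CPM (log2 0.48, SE 0.12; edgeR adjusted p = 0.0483 for sh2 against sh1). That difference did not pass without sh2 replicate 1 (edgeR adjusted p = 0.692) or sh2 replicate 2 (edgeR adjusted p = 0.0547), nor with upper-quartile scaling (edgeR adjusted p = 0.058). Its relative ARRDC4 rose from 17.9 and 19.3 to 38.6 and 46.6 CPM (log2 1.12, SE 0.15; edgeR adjusted p = 0.000288). These were the 2 members that passed of 13 in their list, whose median was log2 −0.09. The glucose carriers SLC2A1 (log2 −0.19, SE 0.10) and SLC2A3 (log2 −0.29, SE 0.10) did not pass. SLC2A3 passed as lower without sh1 replicate 1 or 2 (edgeR adjusted p = 0.00684 and 0.0097), with all 14 libraries (0.0494), with a GC correction (0.00272) and with DESeq2's Wald test (0.0209), and SLC2A1 without sh1 replicate 1 (edgeR adjusted p = 0.00151).

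**Figure D4:**
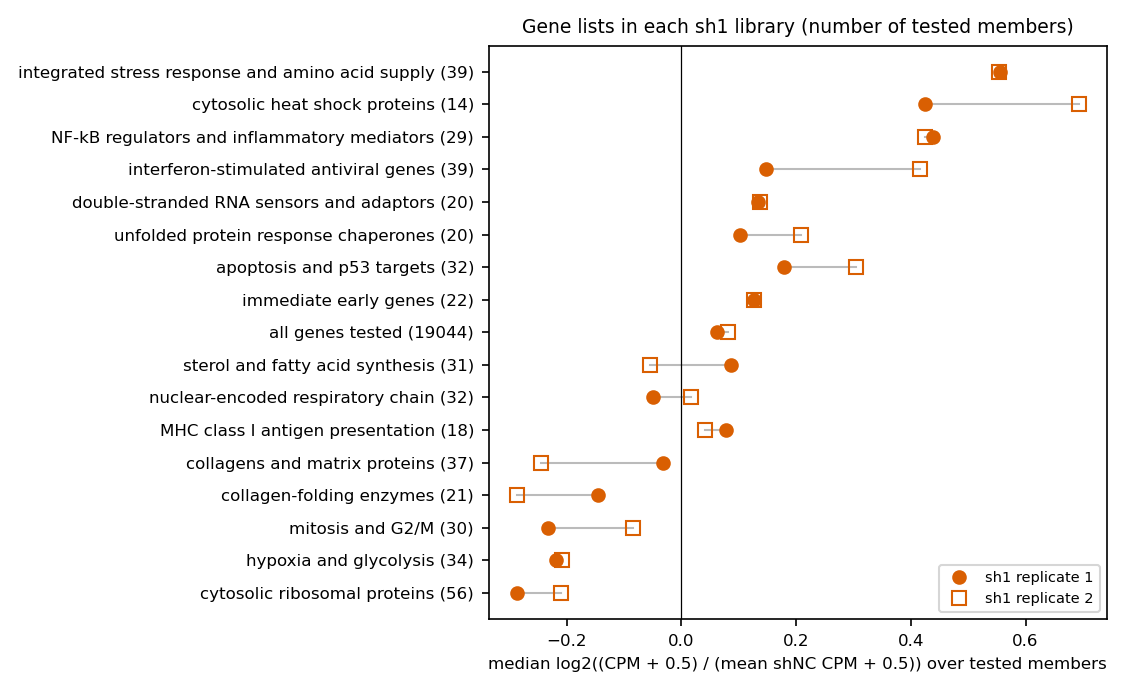
Median log2 difference from the shNC mean over the tested members of 16 gene lists and over all tested genes (horizontal axis), for sh1 replicate 1 (filled) and replicate 2 (open). Amino acid supply stands at 0.55 in both libraries and ribosomal proteins at −0.29 and −0.21, while interferon-stimulated genes stand at 0.15 and 0.42 and collagens at −0.03 and −0.24.

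Among sensors of double-stranded RNA, IFIH1 rose from 34.2 and 35.98 CPM in shNC to 66.8 and 72.6 CPM in sh1 (log2 0.91, SE 0.13; edgeR adjusted p = 0.00069). With sh2 it was at 81.7 and 67.5 CPM, and the direct difference between the hairpins did not pass (log2 0.07, SE 0.13; edgeR adjusted p = 0.842). The regulator DHX58 (log2 0.78) and the DNA sensor CGAS (0.92) rose as well, so 3 of 20 tested members passed as higher and 0 as lower, with a median of log2 0.10. Without shNC replicate 2 DHX58 and CGAS lost their calls (edgeR adjusted p = 0.408 and 0.0705), and DHX58 also without shNC replicate 1 (edgeR adjusted p = 0.0917). EIF2AK2, which encodes PKR, stood at 97.5 and 94.2 CPM in shNC and 108 and 149 CPM in sh1 (log2 0.34, SE 0.14; edgeR adjusted p = 0.164). Both sh1 libraries lay above both controls, replicate 2 by more, and without replicate 1 it passed (edgeR adjusted p = 5.37e-05). MAVS (log2 −0.38, SE 0.12), OAS1 (log2 −0.37, SE 0.14) and the sensor RIGI (log2 −0.38, SE 0.27) were lower in value and did not pass. Without sh1 replicate 1 MAVS passed (edgeR adjusted p = 0.00115), and without sh1 replicate 2 MAVS and OAS1 did (edgeR adjusted p = 0.0121 and 0.0289). With a GC correction both passed as lower (edgeR adjusted p = 0.00449 and 0.047), and with DESeq2's Wald test MAVS did (adjusted p = 0.0103).

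Interferon-stimulated genes were called in both directions. RSAD2, the antiviral enzyme viperin, rose from 85.5 and 87.7 CPM to 175 and 178 CPM (log2 0.95, SE 0.12; edgeR adjusted p = 7.76e-05), and the libraries of each group agreed closely. SAMD9L (log2 0.99), USP18 (0.80), HERC6 (0.70), PARP14 (0.67) and IFIT2 (0.51) were among the 9 of 39 tested that rose. IFITM1 (log2 −0.69) and IFITM2 (−0.51), which block viral entry, tetherin (BST2, −0.48) and LGALS3BP (−0.42) were the 4 that fell. The abundant ISG15 was at 922 and 965 CPM in shNC and 1044 and 942 CPM in sh1 (log2 −0.00, SE 0.10) and did not pass. The list median was log2 0.25, with 0.15 in sh1 replicate 1 and 0.42 in replicate 2. Its members had a median GC content of 46.6%, and with a GC correction 9 rose and 6 fell. RSAD2 was the 1 member that passed without each library in turn, and the 9 that rose became 3 without shNC replicate 1 and 1 without shNC replicate 2. The 4 that fell became 1 and 0 in these fits, 1 without either sh2 library and 1 with the 4 libraries alone.

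Interferons themselves gave little signal. IFNB1 was at 0.0844 and 0.174 CPM in shNC and 0.337 and 0.0471 CPM in sh1, too low to be tested. Of 13 tested ligands, receptors and their regulators, 0 passed with edgeR in either direction, while 3 had an unadjusted p under 0.05. In antigen presentation by MHC class I, 1 of 18 tested genes rose, the peptidase ERAP2 (from 2.24 and 2.87 to 5.43 and 6.83 CPM), and 3 fell, HLA-B (log2 −0.43), HLA-C (−0.58) and the chaperone CALR (−0.39). HLA-B and HLA-C are similar in sequence and can share reads. All 4 lost their calls without shNC replicate 1, with edgeR adjusted p of 0.136, 0.229, 0.144 and 0.0996. The 3 that fell lost theirs without shNC replicate 2 as well (0.456, 0.418 and 0.281), without sh2 replicate 1 (0.102, 0.0616 and 0.0756) and without sh2 replicate 2 (0.107, 0.0688 and 0.083), and HLA-C without sh1 replicate 2 (0.0845).

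Inflammatory genes under NF-kB control rose in 7 of 29 tested and fell in 0, with a median of log2 0.36. By CPM alone the median was alike in the sh1 libraries, 0.44 and 0.42, beside 0.06 and 0.08 over all tested genes. BIRC3, an inhibitor of apoptosis, rose from 94.8 and 98.1 CPM to 142 and 211 CPM (log2 0.80, SE 0.15; edgeR adjusted p = 0.00559). The chemokine CXCL8 was at 39.96 and 37.98 CPM in shNC, 56.01 and 90.7 CPM in sh1 and 145 and 122 CPM in sh2. It rose with sh1 (log2 0.83, SE 0.17; edgeR adjusted p = 0.00781) and was higher again with sh2 (log2 0.84, SE 0.16; edgeR adjusted p = 0.00936), though not without sh2 replicate 1 (edgeR adjusted p = 0.137). TRAF1 (log2 1.07), IL1A (0.99), RELB (0.74), NFKB1 (0.67) and CCL5 (0.57) were the others that rose. The subunit RELA, with 388 and 373 CPM in shNC and 365 and 316 CPM in sh1, did not pass (log2 −0.23, SE 0.11), though it did as lower without sh1 replicate 1 (edgeR adjusted p = 0.00128). Without shNC replicate 1 the count of risen members was 4 and without shNC replicate 2 it was 2, and CXCL8 lost its call without shNC replicate 2 (edgeR adjusted p = 0.065).

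Other named genes rose as well. GADD45A, on the list of apoptosis and p53 response, went from 67.2 and 76 CPM to 143 and 131 CPM (log2 0.86, SE 0.12; edgeR adjusted p = 0.000557). INHBE, a secreted TGF-beta family member, went from 5.19 and 4.57 to 16.5 and 16.1 CPM (log2 1.66, SE 0.20; edgeR adjusted p = 7.21e-05), and sh2 lay lower, at 11.4 and 7.62 CPM (log2 −0.81, SE 0.19; edgeR adjusted p = 0.0306 for sh2 against sh1), which did not pass without sh2 replicate 2 (edgeR adjusted p = 0.379). The chaperone-like CLGN went from 10.97 and 11.3 to 22.2 and 30.2 CPM (log2 1.15, SE 0.17; edgeR adjusted p = 0.000901). In all 3 both sh1 libraries stood above both controls. The p53 target CDKN1A was at 436 and 441 and 513 and 462 CPM and did not pass (log2 0.08, SE 0.10), and of 32 tested genes on that list 3 rose, GADD45A among them, and 0 fell.

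Genes of hypoxia and glycolysis were lower in sh1. CA9, a carbonic anhydrase induced by hypoxia, fell from 584 and 614 CPM to 388 and 374 CPM (log2 −0.73, SE 0.10; edgeR adjusted p = 0.000453). NDRG1, among the highest counts of the libraries, fell from 7165 and 6993 to 5426 and 4771 CPM (log2 −0.55, SE 0.09; edgeR adjusted p = 0.0019). The glycolytic isomerase GPI fell from 1414 and 1396 to 1089 and 955 CPM (log2 −0.54, SE 0.10; edgeR adjusted p = 0.00502). All sh1 values of these genes lay under all shNC values. Of 34 listed and tested genes 12 fell and 0 rose, 31 were negative, and the median was log2 −0.28. By CPM alone the median was −0.22 and −0.21 in the 2 sh1 libraries, beside 0.06 and 0.08 over all tested genes. CA12 (−0.74), ANKRD37 (−0.65), the oxygen sensor EGLN3 (−0.56), the aldolase ALDOC (−0.55), PFKFB3 (−0.54), PFKL (−0.45), ENO2 (−0.43), ADM (−0.38) and ENO1 (−0.32, all log2) were the others. HIF1A (log2 0.16, SE 0.11) and VEGFA (log2 −0.08, SE 0.11) did not pass. They passed only where sh1 replicate 2, whose differences followed GC content, was the sole sh1 library kept. Without shNC replicate 1 the count that fell was 4 and without shNC replicate 2 it was 3, which were CA9, GPI and NDRG1, while without sh1 replicate 1 it was 23.

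Of 31 tested genes of sterol and fatty acid synthesis 1 rose and 1 fell, where 1.96% and 1.85% of all genes did. The fatty acid synthase FASN fell from 941 and 869 to 705 and 539 CPM (log2 −0.62, SE 0.12; edgeR adjusted p = 0.00773). The gluconeogenic enzyme PCK1 was at 21.2 and 21.9 CPM in shNC and 6.65 and 9.84 CPM in sh1 (log2 −1.47, SE 0.18; edgeR adjusted p = 7.76e-05), and sh2 lay between, at 16.4 and 14.9 CPM (log2 0.90, SE 0.18; edgeR adjusted p = 0.0133 for sh2 against sh1). Without sh2 replicate 1 that difference did not pass (edgeR adjusted p = 0.145), nor with all 14 libraries (edgeR adjusted p = 0.0817). In the nuclear-encoded respiratory chain 0 of 32 tested genes rose and 1 fell.

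Cytosolic ribosomal proteins were negative in 56 of 56 tested, with a median of log2 −0.33, and 17 fell and 0 rose. RPL38 was at 219 and 261 CPM in shNC and 173 and 156 CPM in sh1 (log2 −0.62, SE 0.12; edgeR adjusted p = 0.0076), RPS3 at 2055 and 2329 and 1689.5 and 1624 CPM (log2 −0.48, SE 0.10; edgeR adjusted p = 0.00891), and RPL32 at 430.2 and 462 and 319 and 340.3 CPM (log2 −0.51, SE 0.10; edgeR adjusted p = 0.00869). The shNC libraries differed from each other in the same genes, with replicate 2 higher in each of these 3. Across 9067 protein-coding genes the difference of shNC replicate 2 from replicate 1 followed transcript length (Spearman −0.33). Its median was 0.045 in the shortest of 4 bins and −0.071 in the longest. Ribosomal protein genes had a median length of 1864.5 bases, against 2891.5 over all tested genes. The part of length in their fall was not tested. Without shNC replicate 2 none of the 17 passed, with edgeR adjusted p of 0.209, 0.158 and 0.181 for the named 3, and without shNC replicate 1 the count was 10. It was 41 without sh1 replicate 1 and 46 without sh1 replicate 2. Ribosomal protein genes have many processed pseudogenes, so their counts can be split. The ribosomal gene RPL21, which fell further than any member of the list, is described with the genes that separate the hairpins.

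Mitotic genes were lower too, in 7 of 30 tested with 0 higher and a median of log2 −0.22. By CPM alone the median was −0.23 in sh1 replicate 1 and −0.09 in replicate 2. For sh2 against shNC the list median was log2 0.03, and 4 members passed in sh2 against sh1. KIF20A, a kinesin of cytokinesis, fell from 177 and 174 CPM to 112 and 120.0 CPM (log2 −0.67, SE 0.11; edgeR adjusted p = 0.00216). The kinase PLK1 fell from 104 and 103 to 76.3 and 68.6 CPM (log2 −0.60, SE 0.12; edgeR adjusted p = 0.0076) and the ubiquitin ligase component UBE2C from 190.2 and 194 to 135 and 139 CPM (log2 −0.57, SE 0.11; edgeR adjusted p = 0.00659). The proliferation marker MKI67 was at 427 and 361 and 359 and 341 CPM and did not pass (log2 −0.25, SE 0.11), except without sh1 replicate 1 (edgeR adjusted p = 0.00797) and with a GC correction (0.0359). Without either shNC library alone KIF20A was the 1 member that passed, and PLK1 and UBE2C lost their calls without shNC replicate 1 (edgeR adjusted p = 0.0964 and 0.0587) and without shNC replicate 2 (edgeR adjusted p = 0.126 and 0.132). Of 33 tested genes of entry into S phase 2 rose and 3 fell, beside 1.96% and 1.85% of all genes. Among them cyclin D1 (CCND1) rose (log2 0.64) and CDK4 (−0.60), CDK2 (−0.42) and MCM3 (−0.65) fell. These 4 lost their calls without shNC replicate 2 (edgeR adjusted p = 0.121, 0.167, 0.366 and 0.0603), and CCND1 and CDK2 also without shNC replicate 1 (edgeR adjusted p = 0.0593 and 0.231). CDK2 lost it without each sh2 library too (edgeR adjusted p = 0.0921 and 0.0987).

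Genes of the matrix and its folding machinery were mostly negative, and few of them passed. The laminin gamma chain LAMC1, a basement membrane component, fell from 624 and 602 CPM to 352 and 302 CPM (log2 −0.98, SE 0.11; edgeR adjusted p = 3.38e-05). The prolyl isomerase FKBP9 fell from 222 and 215 to 127 and 115 CPM (log2 −0.93, SE 0.11; edgeR adjusted p = 6.91e-05) and stood at 106 and 107 CPM with sh2, where the direct difference did not pass (log2 −0.21, SE 0.11; edgeR adjusted p = 0.36). Of 37 tested collagen and matrix genes 6 fell and 0 rose, with a median of log2 −0.17 and 27 negative. Of 21 collagen-folding genes 2 fell and 0 rose, with a median of log2 −0.27 and 17 negative. Among all tested genes 1.85% fell, and among those over 100 CPM 186 of 2391 did. The median of the matrix list was −0.03 in sh1 replicate 1 and −0.24 in replicate 2. LAMC1 was the 1 matrix gene that passed without each library in turn. COL5A1 fell from 2649 and 2462 to 2215 and 1896 CPM (log2 −0.39, SE 0.10; edgeR adjusted p = 0.0345) and was lower again with sh2, at 1283 and 1452 CPM (log2 −0.62, SE 0.10; edgeR adjusted p = 0.00283). The fall of COL5A1 with sh1 did not pass without shNC replicate 1 (edgeR adjusted p = 0.18), shNC replicate 2 (0.0983), sh2 replicate 1 (0.0616) or sh2 replicate 2 (0.0692), and its difference between hairpins did not without sh2 replicate 1 (0.15).

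Epithelial genes went both ways. Cingulin (CGN), a tight junction protein, rose from 10.2 and 9.396 to 24.1 and 23.6 CPM (log2 1.21, SE 0.17; edgeR adjusted p = 0.000375), and sh2 was lower than sh1, at 15.3 and 11.9 CPM (log2 −0.84, SE 0.16; edgeR adjusted p = 0.00923), though not without sh2 replicate 2 (edgeR adjusted p = 0.193). FOLR1 fell from 1156 and 1291 to 886 and 835 CPM (log2 −0.59, SE 0.10; edgeR adjusted p = 0.00284), and MSLN, MUC1, KRT8 and KRT18 were the other ovarian carcinoma markers that passed as lower, 5 of 10 tested with 0 higher. The log2 changes of those 4 were −0.43, −0.55, −0.37 and −0.40. Without shNC replicate 2 none of the 5 passed, FOLR1 at an edgeR adjusted p of 0.0747. KRT7, at levels given above, did not pass (log2 −0.15, SE 0.10), except without sh1 replicate 1 (edgeR adjusted p = 0.0156).

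Where the 2 hairpins differ was tested directly. Of the 19044 genes 365 passed in sh2 against sh1 (1.92%), 127 higher in sh2 (0.667%) and 238 lower (1.25%). That contrast and sh1 against shNC share the sh1 libraries, so the values of each are given side by side and no count of genes common to both is drawn. The total for sh2 against sh1 was 780 without sh1 replicate 1, 4286 without sh1 replicate 2, 58 without sh2 replicate 1 and 73 without sh2 replicate 2. Against shNC, sh2 gave 2717 calls (14.3%), 1376 higher (7.23%) and 1341 lower (7.04%), with the same control libraries. The log2 change of sh2 against shNC followed GC content more closely than that of sh1 (Spearman −0.66 and −0.42).

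Several genes that fell most with sh1 were higher in sh2 than in sh1. Those described here were picked with both contrasts in view. The contrasts share the sh1 libraries, so a low sh1 value favours both. FKBP9, among the largest falls as well, did not pass in sh2 against sh1, as given above. EMC10, a subunit of the complex that inserts membrane proteins in the endoplasmic reticulum (ENSG00000161671.17; GRCh38, GENCODE 29, chromosome 19, 50476400 to 50490870, plus strand), was at 133 and 141 CPM in shNC, 63.7 and 53.05 CPM in sh1 and 112 and 123 CPM in sh2. Only the sh1 libraries were low (log2 −1.30, SE 0.13; edgeR adjusted p = 1.37e-05; sh2 against sh1 log2 0.98, SE 0.13; edgeR adjusted p = 0.000204). An antisense gene within its span, ENSG00000268854 (chromosome 19, 50480119 to 50483351, minus strand), was at 43.1 and 40.8, 17.6 and 16.5 and 34.6 and 38.7 CPM (log2 −1.37, SE 0.14; edgeR adjusted p = 1.47e-05). GARIN5A (chromosome 19, 50466785 to 50476753, minus strand), whose end overlaps the start of EMC10, was at 10.3 and 10.01, 3.83 and 5.46 and 8.62 and 10.5 CPM (log2 −1.21, SE 0.21; edgeR adjusted p = 0.00258). The strand setting of the counting is not given in the sources used here, so reads of ENSG00000268854 and EMC10 cannot be told apart, nor those of EMC10 and GARIN5A in the short stretch they share.

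LAMC1 lay between the other groups with sh2, at 517 and 528 CPM (log2 0.65, SE 0.11; edgeR adjusted p = 0.00283 for sh2 against sh1). The membrane protein EMP1 was at 109.8 and 103 CPM in shNC, 55.9 and 58.4 CPM in sh1 and 119 and 114 CPM in sh2 (log2 −0.98, SE 0.12; edgeR adjusted p = 6.91e-05; sh2 against sh1 log2 1.00, SE 0.12; edgeR adjusted p = 8.85e-05). TEAD2, a DNA-binding partner of the YAP coactivator, was at 31.8 and 34.1, 14.5 and 14.9 and 30.3 and 25.9 CPM (log2 −1.24, SE 0.15; edgeR adjusted p = 6.35e-05; sh2 against sh1 log2 0.90, SE 0.15; edgeR adjusted p = 0.00276). In these 3 genes the sh1 libraries lay under all 4 others. The difference between hairpins did not pass for LAMC1 without sh2 replicate 2 (edgeR adjusted p = 0.055) or for TEAD2 without sh2 replicate 1 (edgeR adjusted p = 0.0817), and it passed for EMP1 and EMC10 without each library in turn. RPL21 was at 407 and 449, 232 and 291 and 518 and 494 CPM (log2 −0.79, SE 0.12; edgeR adjusted p = 0.000833; sh2 against sh1 log2 0.93, SE 0.12; edgeR adjusted p = 0.000189), with sh2 above both other groups. The activin subunit INHBA went in opposite directions, from 40.6 and 39.3 CPM in shNC down to 29.7 and 24.6 CPM in sh1 and up to 71.1 and 70.5 CPM in sh2 (sh2 against sh1 log2 1.35, SE 0.13; edgeR adjusted p = 2.23e-05). Its fall with sh1 (log2 −0.63, SE 0.13; edgeR adjusted p = 0.0118) did not pass without shNC replicate 1 (edgeR adjusted p = 0.121) or replicate 2 (edgeR adjusted p = 0.133).

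**Figure D5:**
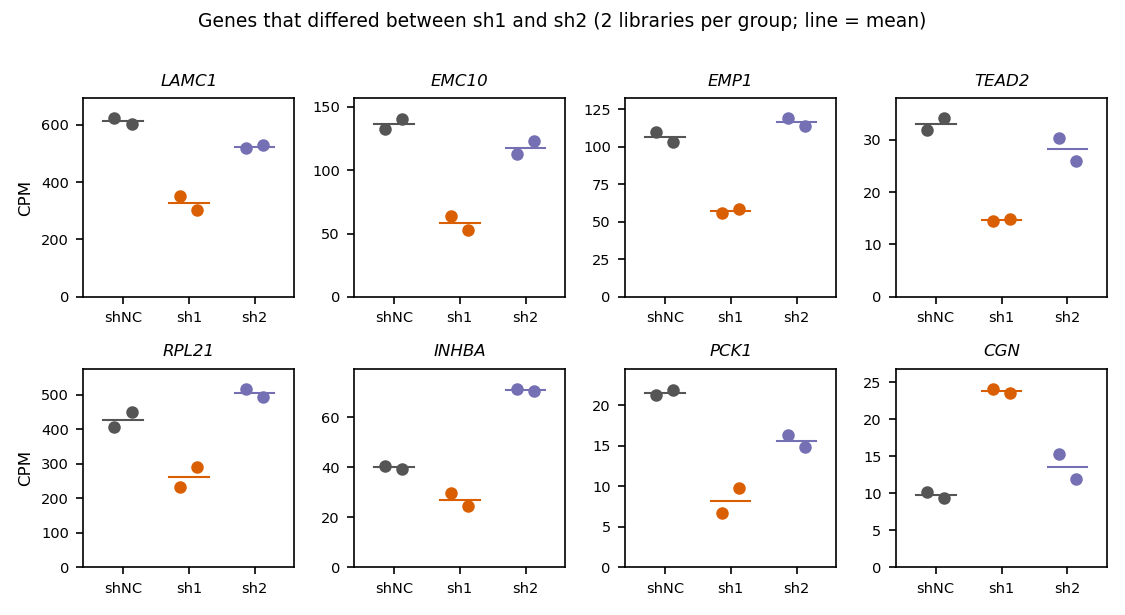
CPM of 8 genes (vertical axes, each from 0) that passed in sh1 against shNC and in sh2 against sh1; points are single libraries with replicate 1 on the left, lines are means of 2. LAMC1, EMC10, EMP1, TEAD2, RPL21, INHBA and PCK1 are lowest in sh1, and CGN is highest there.

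Of 2293 tested antisense genes 13 were higher and 15 lower, or 1.22%, beside 4.94% of 13250 protein-coding genes. The nuclear RNA NEAT1, which builds paraspeckles, fell from 2284 and 2131 CPM to 1622 and 1579 CPM (log2 −0.54, SE 0.10; edgeR adjusted p = 0.00484). CARS1-AS1 rose from 29.5 and 26.8 to 55.3 and 48.1 CPM (log2 0.80, SE 0.13) within the span of CARS1, from which its reads cannot be told apart, and lost its call without shNC replicate 2 (edgeR adjusted p = 0.0833).

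Lists of cisplatin handling were read against 1.96% higher and 1.85% lower among all tested genes. Of 21 tested genes of platinum transport and efflux 2 rose and 0 fell, the volume-regulated channel subunits LRRC8D (31.4 and 32.6 CPM in shNC, 45.5 and 54.1 CPM in sh1; log2 0.56, SE 0.13; edgeR adjusted p = 0.0237) and LRRC8B (log2 0.90, SE 0.20; edgeR adjusted p = 0.0163). Both lost their calls without shNC replicate 1 (edgeR adjusted p = 0.274 and 0.175) and without shNC replicate 2 (edgeR adjusted p = 0.204 and 0.09). Of 41 tested genes that repair DNA adducts and crosslinks 2 rose, ERCC4 among them (log2 0.83, SE 0.17), and 0 fell. ERCC4 did not pass without shNC replicate 2 (edgeR adjusted p = 0.266). Glutathione, NRF2 and metallothionein genes gave 2 higher and 2 lower of 39 tested. Of 26 tested transcripts known to carry edited sites 1 rose, the antizyme inhibitor AZIN1 (75.4 and 70.9 CPM in shNC, 93.5 and 125 CPM in sh1; log2 0.50, SE 0.14; edgeR adjusted p = 0.0482). Its call was lost without shNC replicate 1, shNC replicate 2, sh1 replicate 2 and each sh2 library, the last 2 at an edgeR adjusted p of 0.0599 and 0.0654, the others at 0.207, 0.346 and 0.0945.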

How the data were processed

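Each library came as a deposited file of gene counts, 1 per library, made by the authors. Tools listed in the submitters' processing notes are HTSeq 2.0.3, STAR 2.7.8a, FastQC 0.11.9 and SAMtools, with the build GRCh38.p13. The sources used here do not give the annotation release, the strand setting or the treatment of multiply aligned reads. The 5 summary lines of each file were kept out of totals and tests. Reads on no gene took 49.5% to 50%, ambiguous reads 2.09% to 2.26% and multiply aligned reads 4.88% to 4.99% in the 4 libraries compared. Of 62757 genes 62639 had a symbol. Coordinates and types were taken from GENCODE 29, which held 58274 of them.

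The 6 hairpin libraries were fitted together with edgeR 4.0.16, with TMM scaling, filterByExpr at a minimum count of 10, the quasi-likelihood F-test, 1 mean per group and Benjamini-Hochberg adjustment over 19044 genes at 0.05. The biological coefficient of variation was 0.106. CPM used the assigned total of each library, and differences of single libraries added 0.5 CPM. No replicate duplicated another, since the chi-square per gene between replicates was 5.01 in shNC and 21.1 in sh1. The fit of sh1 against shNC was also run on simulated counts with known changes in sh1. Each simulated gene had the same spread in all groups and no GC trend, unlike the sh1 libraries.

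Named were ADAR, ADARB1 and ADARB2, the 10 higher and 10 lower protein-coding genes of largest change among those called without overlap at 10 CPM or more, and per list up to 4 called members and 2 others. The 4 non-coding genes each way and 5 genes each way for sh2 against sh1 of smallest adjusted p were added, and the text prints a part of these. EIF2AK2, RIGI, MAVS, OAS1, ATF4, HSF1, EIF4EBP1, HIF1A and VEGFA were named for their roles, and the other called list members and the genes of the closing observations after their values were seen. The members, lists and rules were chosen with earlier results of these data known. A few genes met by these rules are not reported here. Alternatives were DESeq2 1.42.0 size factors and Wald test, upper-quartile scaling, limma 3.58.1 voom, other filters, other sets of libraries, a replicate block, a GC correction and leaving out each library. Promoters came from RefSeq (GRCh38.p14), where each searched window held 250 bases. Software was R 4.3.3, Python 3.11.15, numpy 2.4.6, pandas 2.3.3 and matplotlib 3.10.9.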

Additional observations from a re-analysis of the deposited data

How the results depend on the processing

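ADAR was called lower in every alternative run, at log2 −0.62 to −0.84 without each library in turn and an edgeR adjusted p of at most 0.0277. The count of called genes moved with the libraries kept. Without each of the 6 hairpin libraries in turn it ran from 89 to 4512, the count of at least 2-fold changes from 40 to 306, and the count for sh2 against sh1 from 58 to 4286. Of the 725 genes, 152 were called with the same sign without shNC replicate 1, 87 without shNC replicate 2, 707 without sh1 replicate 1 and 629 without sh1 replicate 2. Over the same leave-outs the risen members ran from 8 to 26 for amino acid supply, 2 to 10 for heat shock, 1 to 15 for interferon-stimulated genes and 2 to 12 for NF-kB. The fallen members ran from 3 to 23 for hypoxia, 0 to 46 for ribosomal proteins and 1 to 14 for mitosis. The 4 libraries alone gave 445 genes and 5 fallen ribosomal proteins. Without a low-count filter the at least 2-fold count was 151, the sh2 against sh1 count 690 and the fallen ribosomal proteins 29. A mean of at least 5 CPM left 33 genes at 2-fold. DESeq2's Wald test gave 38 at 2-fold, 624 for sh2 against sh1 and 36 ribosomal proteins, and 39.2% of its calls were higher in sh1, against 51.4%. Of 163 named genes called, 159 were called with upper-quartile scaling and 161 with limma-voom, and no called gene changed sign with either.

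A correction for GC content, chosen after seeing the data, raised the count to 2128, and 716 of the 725 remained with the same sign. It gave 142 genes at 2-fold, 1233 for sh2 against sh1, 14 risen NF-kB genes, 38 fallen ribosomal proteins and 17 fallen mitotic genes. With a replicate block added to it these were 2009, 128, 1157, 14, 39 and 17. Replicate numbers did not pair the libraries: deviations of same-numbered libraries correlated at 0.03 for shNC with sh1, 0.00 for shNC with sh2 and −0.19 for sh1 with sh2. With the replicate block alone 689 genes were called, 642 of the 725 among them with the same sign.

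Groups of 2 leave 3 residual degrees of freedom. Where a leave-out left 1 library in a group, its spread was taken to be that of the other groups. ADARB2, IFNB1, HSPA1A and HSPA1B did not pass the low-count filter and were not tested.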

Other observations

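Other genes drew attention after their values were seen and lie outside the rule by which genes were named. TERT, the catalytic subunit of telomerase, was at 1.86 and 1.61 CPM in shNC, 7.92 and 7.11 CPM in sh1 and 5.92 and 7.702 CPM in sh2, and rose with sh1 (log2 2.04, SE 0.24; edgeR adjusted p = 6.35e-05). The xenobiotic enzyme CYP1A1, a target of the aryl hydrocarbon receptor, was at 1.01 and 1.39, 6.11 and 7.63 and 6.56 and 4.99 CPM in the same order (log2 2.43, SE 0.27; edgeR adjusted p = 4.85e-05). Both were low in the controls and higher in all 4 ADAR1 hairpin libraries. The lymphocyte receptor TNFRSF9 was at 2.996 and 2.83, 7.201 and 10.1 and 6.66 and 5.67 CPM (log2 1.49, SE 0.23; edgeR adjusted p = 0.00109).

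The sulfotransferase GAL3ST1 had the lowest log2 change of any called gene drawn in the plot of all tested genes. It was at 7.55 and 7.004 CPM in shNC, 1.14 and 0.518 CPM in sh1 and 4.31 and 4.401 CPM in sh2 (log2 −3.18, SE 0.30; edgeR adjusted p = 1.37e-05), with sh2 between the other groups (log2 2.34, SE 0.31; edgeR adjusted p = 0.000257 for sh2 against sh1). HILPDA, a hypoxia-induced lipid droplet protein, fell from 482 and 512 to 281 and 336 CPM (log2 −0.76, SE 0.11; edgeR adjusted p = 0.000668). The complement inhibitor CD55 fell from 1719 and 1810.0 to 1059 and 1269 CPM (log2 −0.68, SE 0.10; edgeR adjusted p = 0.000876) and stood at 1665 and 1604 CPM with sh2. CSF1, the growth factor of macrophages, rose from 12.5 and 9.96 to 25.5 and 23.2 CPM (log2 1.04, SE 0.16; edgeR adjusted p = 0.00127), and lost its call without shNC replicate 2 (edgeR adjusted p = 0.057).

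Of 22 tested immediate early genes, a list sensitive to handling, 4 rose and 0 fell, with a median of log2 0.00. Among all tested genes 1.96% rose and 1.85% fell. Of 13 mitochondrially encoded messenger RNAs 0 rose and 2 fell, with a median of log2 −0.19. The part of handling or RNA quality in the results was not tested.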
